A study of Mus musculus with 18 samples.

Results

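The genes described here belong to families of phosphatases whose typical members remove phosphate from tyrosine, alone or together with threonine. They were chosen by name alone, as every gene symbol made of Dusp and a number, Ptpn and a number, or Ptpr and a letter or n2, with *Ptprb* left out. The rule took 60 of 55401 genes, of which 24 are *Dusp*, 17 are *Ptpn* and 19 are *Ptpr* genes. Their RNA was measured in pools of thick ascending limbs of the loop of Henle, dissected by hand from the cortex (CTAL) or from the outer medulla, within its inner stripe (MTAL) of adult mice, several months old. Control littermates with floxed *Cldn10* alleles and no Cre (Cldn10 fl/fl, called WT) were compared with mice that carried the same floxed alleles and Ksp-Cre (cKO). The series held 5 pools of WT CTAL, 5 of cKO CTAL, 5 of WT MTAL and 3 of cKO MTAL. The labels give the strain as C57BL/6J, and the methods call all animals male with a mainly C57BL/6 background. Each pool came from its own mouse, so that the spread between pools is a spread between animals. Ksp-Cre follows the Ksp-cadherin promoter, which is active along the distal nephron and not only in the thick limb. Kidneys of cKO mice carried calcium deposits around the MTAL, which limited the number of pools of that group.

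Dual-specificity phosphatases include the MAP kinase phosphatases, which switch off the ERK, JNK and p38 kinases. Several of them are induced by the kinases that they silence and so close a feedback loop, and the rest, called atypical, lack the domain that docks to MAP kinases. Classical tyrosine phosphatases are either soluble (*Ptpn*) or span the membrane (*Ptpr*). The soluble ones act on growth factor, cytokine and integrin signalling, while many receptor-like ones sit at cell contacts and act on Src kinases, cadherins and the matrix. In kidney tubules, ERK and Src signalling is known to act on ion transport and on tight junctions.

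The total counts ranged from 10824299 to 62339939 per pool, which puts 3 reads, the floor used for detection, between 0.0481 and 0.277 CPM (read counts scaled to library size). *Cldn10*, the deleted gene, lay between 383 and 579 CPM in WT CTAL, 156 and 185 in cKO CTAL, 665 and 823 in WT MTAL and 151 and 283 in cKO MTAL, so that its RNA was reduced and not lost. The study left out a cKO CTAL pool whose *Cldn10* resembled that of WT, so that this gene took part in the choice of pools. The summed CPM of 9 thick limb markers was 50571 or more in each pool. The title of WT CTAL pool 1 names knock-out mice in words while its pool name says WT. Its *Cldn10* level, 446 CPM, lay within the range of the other WT CTAL pools, it was kept as WT, and results were also computed with it as cKO CTAL. *Xist*, the RNA of the inactive X chromosome, was at 6.50 to 8.91 CPM in 7 pools and at most 0.736 CPM in the others. These 7 were 2 of 5 WT CTAL, 1 of 5 cKO CTAL, 4 of 5 WT MTAL and 0 of 3 cKO MTAL pools, although all mice are described as male. *Aqp2*, a collecting duct gene, reached 539.5 CPM in cKO MTAL pool 20 against 19.8 to 149 CPM elsewhere. Since these are bulk pools, fewer cells of a type and less RNA per cell cannot be told apart.

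Levels of different genes are compared here in TPM, which scales for library size and for transcript length. By the mean TPM of all 18 pools, 31 of the 60 phosphatase genes were at 10 TPM or more, 13 between 1 and 10 TPM, and 16 below 1 TPM. Counts were found for 52 of them in every pool. At 10 TPM or more were 12 of 17 *Ptpn* genes, 8 of 19 *Ptpr* genes and 6 of 14 atypical *Dusp* genes. All 3 cytoplasmic ERK phosphatases passed that level, as did 2 of the 4 inducible nuclear ones and 0 of the 3 that prefer JNK and p38.

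**Figure D1:**
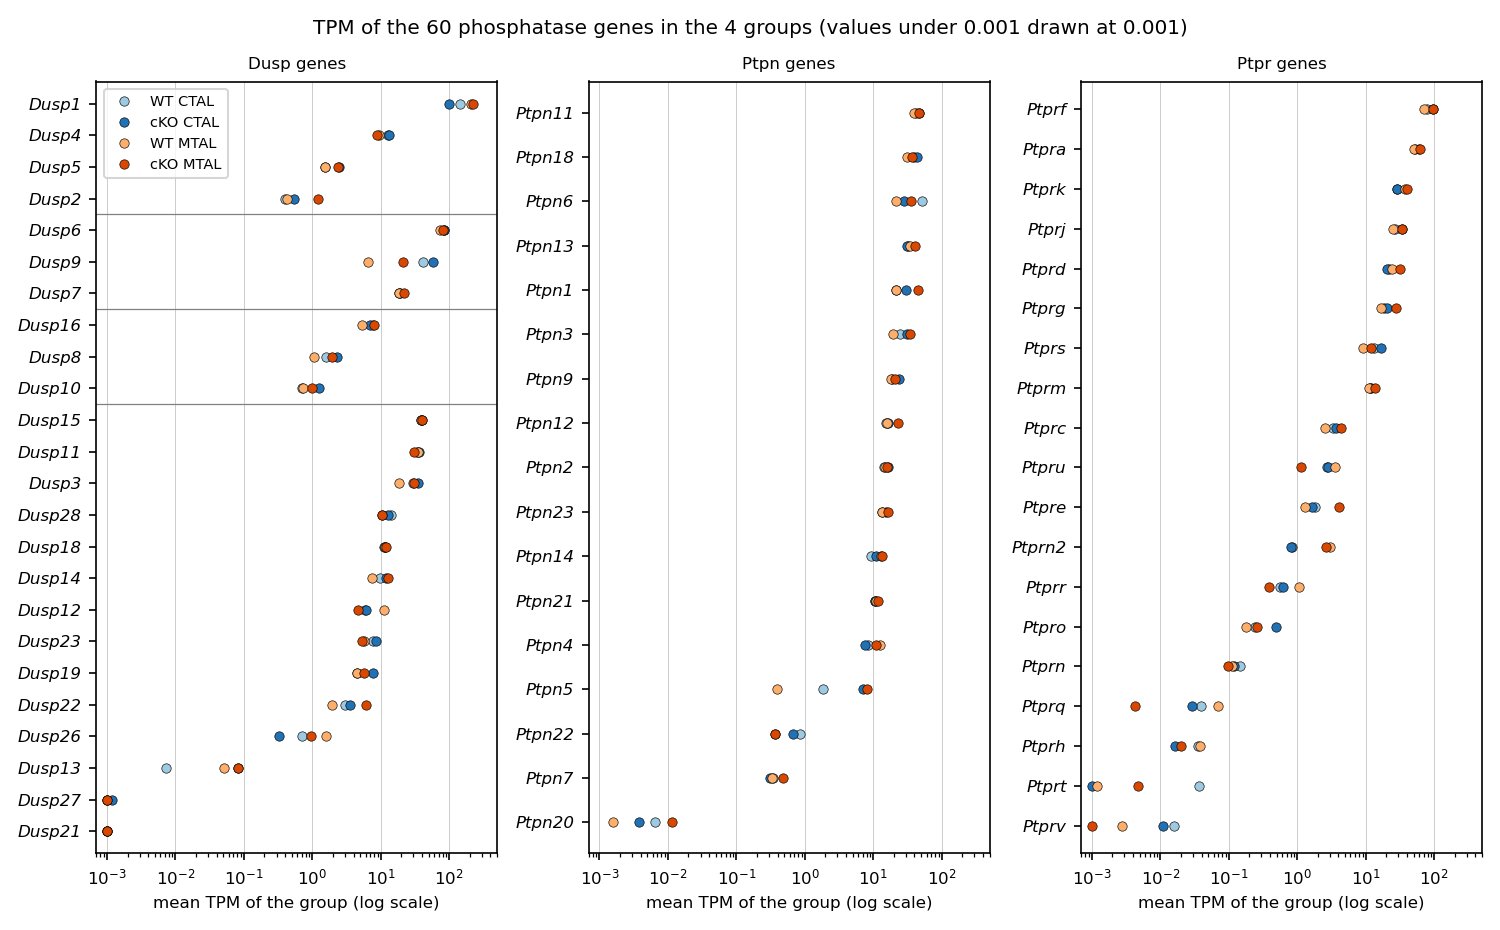
Mean TPM (log axis) of each of the 60 phosphatase genes in WT CTAL, cKO CTAL, WT MTAL and cKO MTAL, in 3 panels for *Dusp*, *Ptpn* and *Ptpr* genes, sorted by level within each class. Most abundant genes have 4 overlapping points, whereas those of *Dusp9* and *Ptpn5* are spread apart, with WT MTAL lowest in both.

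*Dusp1*, the classic immediate early MAP kinase phosphatase, had the highest level of the family, with group means of 145 ± 40.3 TPM in WT CTAL, 98.6 ± 31.9 in cKO CTAL, 209.7 ± 90.5 in WT MTAL and 219 ± 42.7 in cKO MTAL (SD, n = 5, 5, 5 and 3 pools, also for the TPM means that follow). *Dusp6*, an ERK phosphatase of the cytoplasm, followed at 73.8 ± 14.9 TPM in WT MTAL to 84.5 ± 32.6 TPM in cKO CTAL. *Dusp15*, an atypical enzyme anchored by a lipid, had means between 38.9 ± 13.1 TPM in WT MTAL and 40.3 ± 16.7 TPM in cKO MTAL. The means of *Dusp6* and *Dusp15* differed between groups by less than the spread between pools.

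Among receptor-like enzymes *Ptprf* (LAR), which binds liprin scaffolds, led with means of 71.8 ± 11.7 TPM in WT MTAL to 96.2 ± 12.2 TPM in cKO MTAL. *Ptpra*, which activates Src kinases by removing their inhibitory phosphate, had means from 50.1 ± 10.4 TPM in WT MTAL to 61.6 ± 19.3 TPM in cKO MTAL. *Ptprk*, described below, came next. Among soluble enzymes *Ptpn11* (SHP2), which carries growth factor signals to the Ras and ERK pathway, had means of 39.3 ± 6.38 TPM in WT MTAL to 47.3 ± 9.07 TPM in cKO MTAL. *Ptpn18*, a partner of the Csk kinase, followed with means of 31.3 ± 4.76 TPM in WT MTAL to 43.7 ± 5.86 TPM in cKO CTAL. *Ptpn6* (SHP1), best known from blood cells, took its place among the leading ones only through a value of 150.4 TPM in WT CTAL pool 3, the other pools lying between 18.9 and 44.6 TPM. In CPM the same pool was at 38, within the 30.2 to 54.0 CPM of the other pools.

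Across the 18 pools *Ptpra* and *Ptpn11* were among the steadiest members, with a highest CPM 1.27 and 1.34 times the lowest. The corresponding ratio was 13.4 for *Dusp9* and 64.2 for *Ptpn5*, against a median of 2.21 over the 44 members tested in any comparison. *Ptprc* (CD45), which is made by leukocytes, stayed between 5.81 and 14.4 CPM, beside a summed 53.4 to 99.9 CPM of 10 immune cell markers. *Ptpro*, a podocyte enzyme, did not exceed 1.31 CPM. *Dusp21* had no count in any pool, and *Dusp27* had counts in 2 pools.

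Differences in CPM were tested by edgeR's quasi-likelihood method, fitted on all genes with at least 3 CPM in enough pools. A gene was called at a Benjamini-Hochberg adjusted p under 0.05, over all genes tested. It counts as differentially expressed when its log2 fold change was also at least 1 in either direction. Every pair of comparisons that shares a group shares its pools, so that their results are not independent.

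The first comparison asked what loss of *Cldn10* does in MTAL. Of the 60 members 44 were tested, and 4 were called between cKO MTAL and WT MTAL, where *Ptpn5*, *Dusp9* and *Dusp3* rose and *Ptprk* fell. That is 9.09% of the members tested, beside 7.01% of the 12060 genes tested. Differential expression at the fold limit was found for 2 members (*Ptpn5* and *Dusp9*), 4.55% against 3.74% of all genes. The CPM of the groups did not overlap for 8 members, 5 higher and 3 lower in cKO MTAL, which is 18.2% against 15% of all genes. The members' shares were thus close to those of all genes, and their median log2 fold change was 0.04 against 0.00.

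The second comparison asked the same in CTAL. Of 42 members tested 1, *Ptpn5*, was called, and it was also differentially expressed. This makes 2.38% in both counts, beside 1.22% of 11702 genes called and 0.47% differentially expressed. The groups did not overlap for 0 members, against 3.13% of all genes. At an unadjusted p under 0.05 there were 7 members, 16.7% against 11.8% of all genes. The median log2 fold change was -0.03 for the members and 0.00 for all genes.

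The third comparison set the segments of WT mice against each other. There 6 of 42 members were called, 3 higher in WT MTAL (*Ptprn2*, *Ptpn14* and *Ptprk*) and 3 lower (*Dusp9*, *Ptprs* and *Dusp3*). Their share was 14.3% against 6.87% of 11650 genes, with 2 members (4.76%) against 2.32% differentially expressed. The groups did not overlap for 6 members, 14.3% against 7.3% of all genes. The median log2 fold change was -0.01 for members and 0.02 for all genes.

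Between the segments of cKO mice, 2 of 44 members were called, *Dusp1* higher and *Dusp9* lower in cKO MTAL than in cKO CTAL. Both were differentially expressed, which is 4.55% against 1.75% of 12044 genes called and 0.938% differentially expressed. The groups did not overlap for 5 members, 11.4% against 10.8% of all genes. The median log2 fold change was 0.04 for members and 0.03 for all genes.

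A last test asked whether the genotype effect differed between the segments. Its interaction term called 0 of 44 members with edgeR's quasi-likelihood test, beside 0.286% of 12586 genes. At an unadjusted p under 0.05 there were 5 members, 11.4% against 14.7% of all genes. DESeq2 called 0 and the likelihood ratio test of edgeR called 1, which was *Dusp9*. No difference in genotype effect between the segments was therefore shown for any member by the main test.

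**Figure D2:**
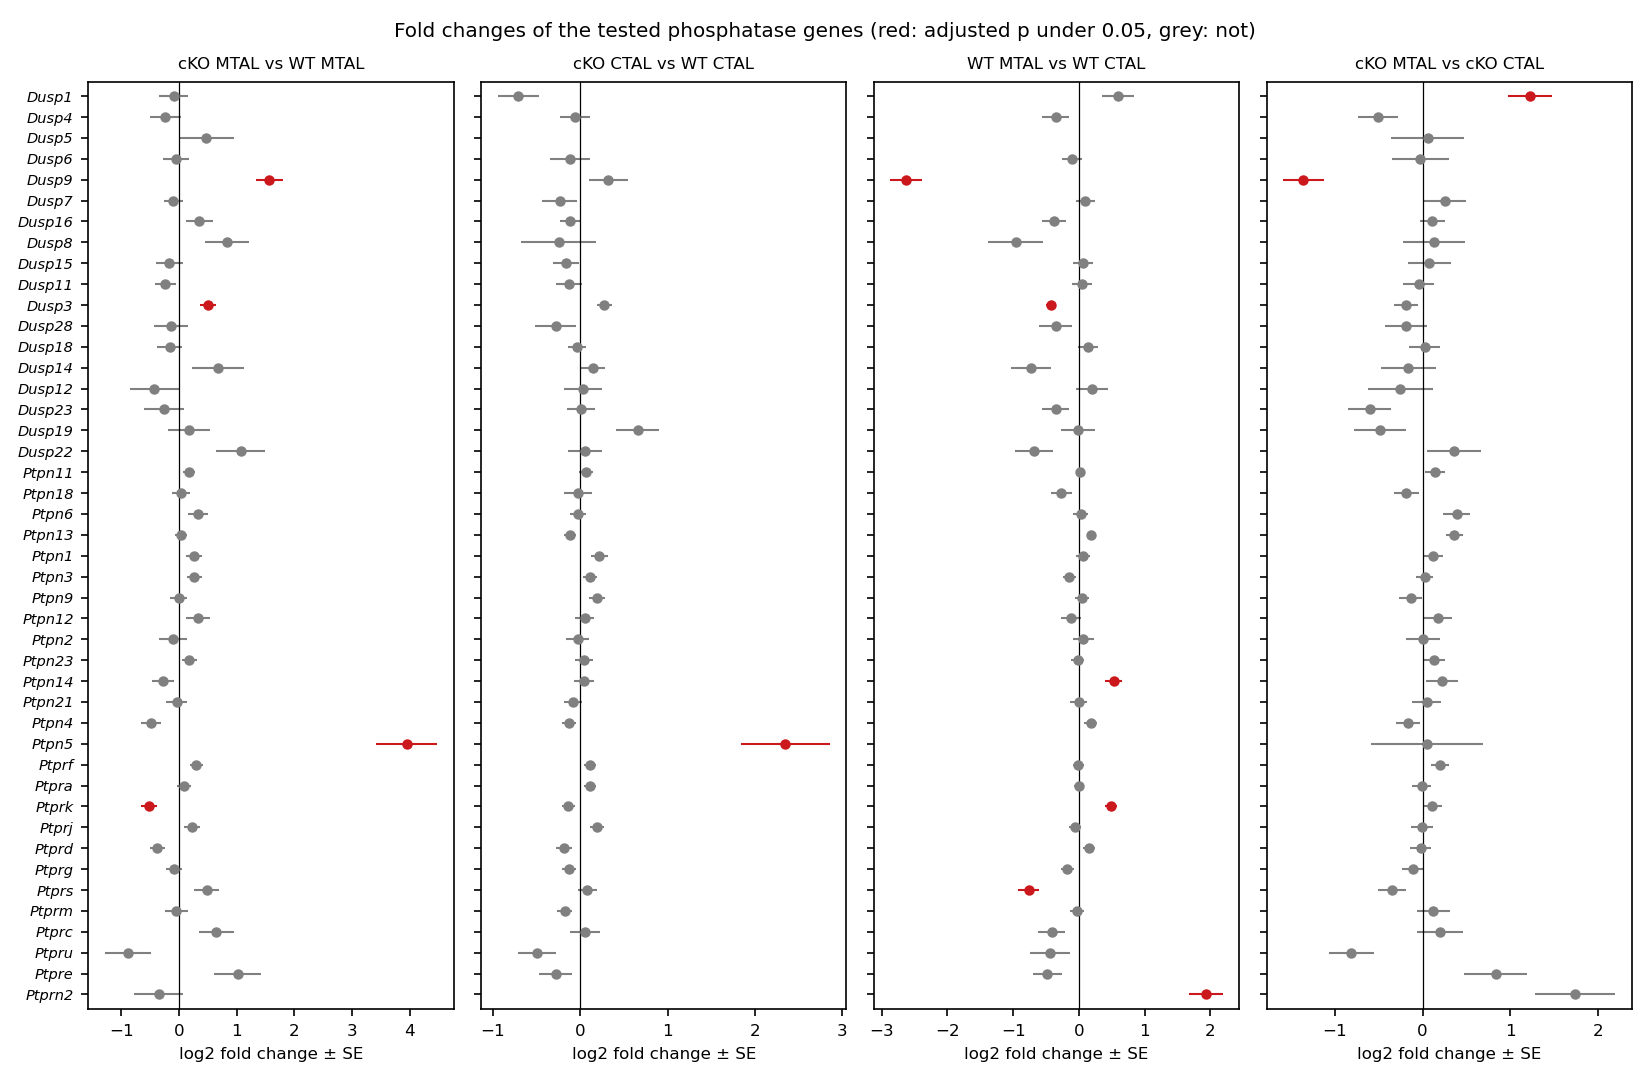
Log2 fold change with its SE for each phosphatase gene tested, in one panel per comparison, ordered by class and level, with red points for genes called and grey points for the others. Most points lie near 0, *Ptpn5* stands out in both comparisons of genotype, and *Dusp9* in both comparisons of segment and in MTAL between genotypes.

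*Dusp9* (MKP-4) is a cytoplasmic phosphatase of ERK and lies on the X chromosome. Its gene (ENSMUSG00000031383) spans 73639419 to 73643514 of chromosome X on the plus strand of GRCm38, the build also called mm10, and overlaps no other gene in the GENCODE annotation. In WT CTAL pools 1, 3, 8, 10 and 22 it was at 112, 62.8, 142, 61.0 and 87.8 CPM. In cKO CTAL pools 2, 4, 7, 9 and 21 it was at 72.0, 120.4, 145, 131 and 119.6 CPM. In WT MTAL pools 11, 13, 15, 17 and 19 it was at 22.8, 15.5, 10.8, 14.3 and 12.9 CPM. All 5 values of WT MTAL were below each of the CTAL values. In cKO MTAL pools 16, 18 and 20 *Dusp9* was at 43.3, 32.4 and 54.6 CPM, above every WT MTAL pool and below every CTAL pool.

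The log2 fold change of *Dusp9* between WT MTAL and WT CTAL was -2.63 (SE 0.24, edgeR adjusted p = 2.98e-06). It rose in cKO MTAL over WT MTAL by 1.56 on the log2 scale (SE 0.23, edgeR adjusted p = 0.000835), which is 2.96-fold. The difference between cKO MTAL and cKO CTAL was -1.36 (SE 0.23, edgeR adjusted p = 0.0110). The level in cKO MTAL thus stood between those of WT MTAL and of both CTAL groups. Between cKO CTAL and WT CTAL the log2 fold change was 0.32 (SE 0.22, edgeR adjusted p = 0.633), and the groups overlapped. The interaction was 1.23 (SE 0.35), with an unadjusted p of 0.00182 and an edgeR adjusted p of 0.0953.

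These 3 calls held in each of the 17, 20 and 18 alternatives run for them. *Dusp9* and *Xist* are both X-linked, and the pools with *Xist* were 4 of 5 in WT MTAL and 0 of 3 in cKO MTAL. In a fit of all pools with a term for *Xist* the rise in cKO MTAL was 1.19 on the log2 scale (edgeR adjusted p = 0.0153). The WT MTAL pool without *Xist*, pool 13, had 15.5 CPM of *Dusp9*, below each of the 3 cKO MTAL pools. The summed CPM of the thick limb markers, of which *Umod* made up the largest part, followed the same order of groups as *Dusp9*. It was 50571 to 63501 in WT MTAL, 68084 to 78795 in cKO MTAL and 84239 to 99254 in CTAL. *Slc12a1*, also on the list, did not, at 14665.6 to 16187.1 CPM in WT MTAL, 11416.4 to 14338.5 in cKO MTAL and 11752.1 to 15483.8 in CTAL. Of the 9 markers, 7 were lower and 2 higher in WT MTAL than in WT CTAL. Their part in the result was not tested.

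*Ptpn5* (STEP) is a soluble phosphatase known from neurons, where it acts on ERK, p38 and the Src family kinase Fyn. Its gene (ENSMUSG00000030854) spans 47077795 to 47133684 of chromosome 7 on the minus strand and overlaps an antisense gene, *Gm14377*. RefSeq lists a pair of start sites for it on GRCm38.p6. Windows from 250 bases before to 50 after each start are printed because *Ptpn5* had the largest fold change of the family. The capitals, none here, mark TGACG on either strand, the core of the cyclic AMP response element (CRE).

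Ptpn5 at chr7:47132549-47132848, minus strand: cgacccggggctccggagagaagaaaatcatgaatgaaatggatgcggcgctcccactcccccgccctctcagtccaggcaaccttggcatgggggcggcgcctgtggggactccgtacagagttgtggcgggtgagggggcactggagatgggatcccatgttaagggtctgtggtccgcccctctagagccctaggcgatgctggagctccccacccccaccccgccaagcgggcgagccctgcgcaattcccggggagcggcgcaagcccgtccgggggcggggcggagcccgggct
Ptpn5 at chr7:47133635-47133934, minus strand: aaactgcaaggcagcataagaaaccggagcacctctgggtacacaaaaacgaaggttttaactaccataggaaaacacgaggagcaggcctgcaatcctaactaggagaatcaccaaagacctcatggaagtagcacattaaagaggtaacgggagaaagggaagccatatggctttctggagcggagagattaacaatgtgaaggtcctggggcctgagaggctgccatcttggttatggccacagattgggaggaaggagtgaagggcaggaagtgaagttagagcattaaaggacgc

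The first window holds 69.0% G and C with 5 GC boxes (GGGCGG on either strand), and the second holds 48.7% with 0. A GC box was found in 35.7% of all 32851 promoter windows of that length.

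*Ptpn5* was at 4.24, 1.60, 1.82, 1.83 and 4.48 CPM in the WT CTAL pools, and at 3.58, 27.5, 25.1, 9.63 and 6.95 CPM in the cKO CTAL pools. The cKO CTAL pool 2 lay among the WT CTAL values, and the other 4 were above all of them. In WT MTAL it was at 0.762, 1.63, 1.01, 0.429 and 0.865 CPM. In cKO MTAL it was at 11.3, 4.98 and 26.1 CPM, so that the lowest cKO pool was above the highest WT pool of MTAL. The gene was called in both comparisons of genotype, at low levels in WT mice.

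In MTAL *Ptpn5* rose 15.4-fold, a log2 fold change of 3.95 (SE 0.53, edgeR adjusted p = 0.000310). It passed the filter there only through the 3 cKO MTAL pools, in which it had to be high to be tested. Without the filter the log2 fold change was 3.88 (edgeR adjusted p = 2.83e-08), and without both the filter and one cKO MTAL pool it lay between 3.08, without pool 20, and 4.29. With a term for *Aqp2*, highest in that pool, the log2 fold change was 3.52 in a fit of all pools (edgeR adjusted p = 0.00194). Of 4 proximal tubule markers tested 2 rose in cKO MTAL, where the summed CPM of the 7 on the list was 103 to 373 against 63.9 to 128 in WT MTAL. Their part in the rise of *Ptpn5* was not tested.

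In CTAL *Ptpn5* rose 5.10-fold, a log2 fold change of 2.35 (SE 0.51, edgeR adjusted p = 0.0360). This call was lost when WT CTAL pool 3, 8, 10 or 22, or cKO CTAL pool 4 or 7, was left out, with edgeR adjusted p between 0.0536 and 0.107 and log2 fold changes between 1.98 and 2.58. It was also lost with WT CTAL pool 1 counted as cKO CTAL (2.36, edgeR adjusted p = 0.0712), with a term for *Xist* (2.05, edgeR adjusted p = 0.109) and on log2(TPM + 1) (1.43, limma adjusted p = 0.184). Between cKO MTAL and cKO CTAL the log2 fold change was 0.05 (SE 0.64), and the groups overlapped.

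**Figure D3:**
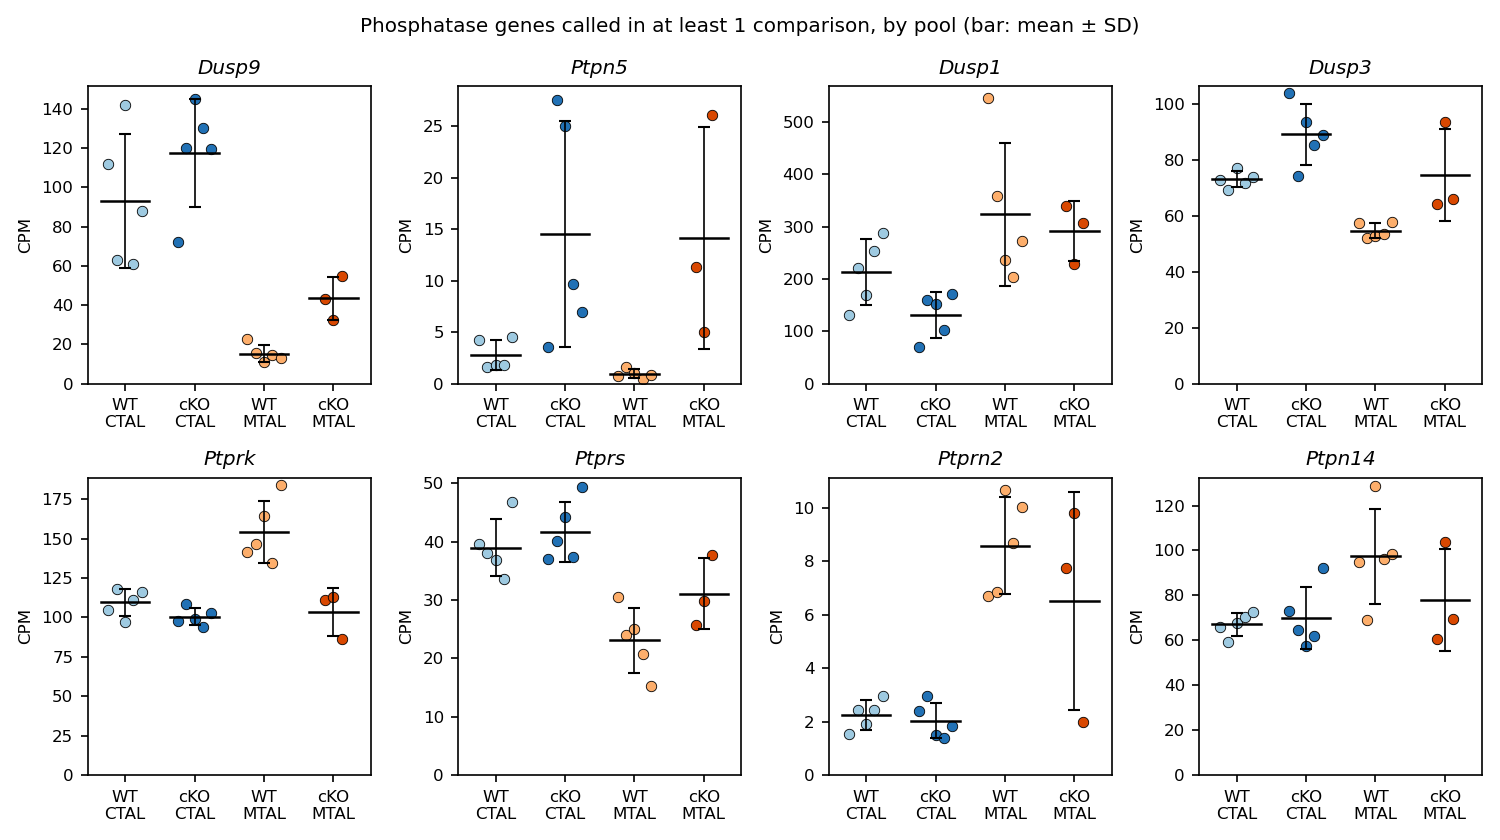
CPM of the 8 phosphatase genes called in at least 1 comparison, one point per pool and one panel per gene on its own linear axis from 0, with the mean (line) and SD (bar) of WT CTAL, cKO CTAL, WT MTAL and cKO MTAL. In WT MTAL *Dusp9* stays at or below 22.8 CPM and *Ptpn5* at or below 1.63 CPM, and all 3 cKO MTAL pools are above these values.

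*Dusp3* (VHR) is an atypical phosphatase that can act on ERK and JNK, and *Ptprk* is a receptor-like enzyme that binds itself across cell contacts and acts on catenins. Both differed between the segments in WT mice and, the opposite way in log2 terms, between the genotypes in MTAL. These comparisons share the WT MTAL pools. Their RefSeq promoter windows are shown as a pair, with CRE cores in capitals (CGTCA where the match is on the other strand).

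Dusp3 at chr11:101984742-101985041, minus strand: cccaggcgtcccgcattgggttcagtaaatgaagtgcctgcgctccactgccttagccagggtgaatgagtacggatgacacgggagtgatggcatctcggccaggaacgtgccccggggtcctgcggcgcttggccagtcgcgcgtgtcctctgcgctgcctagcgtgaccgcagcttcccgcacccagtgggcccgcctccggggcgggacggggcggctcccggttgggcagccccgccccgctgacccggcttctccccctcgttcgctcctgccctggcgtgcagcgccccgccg
Ptprk at chr10:28074570-28074869, plus strand: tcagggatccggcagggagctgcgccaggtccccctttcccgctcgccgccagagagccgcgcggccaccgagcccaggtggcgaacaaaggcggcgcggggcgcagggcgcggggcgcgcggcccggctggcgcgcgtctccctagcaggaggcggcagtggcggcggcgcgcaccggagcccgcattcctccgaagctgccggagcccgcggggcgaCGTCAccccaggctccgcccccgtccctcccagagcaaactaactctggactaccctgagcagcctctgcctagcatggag

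The *Dusp3* window holds no CRE core and 3 GC boxes, and that of *Ptprk* holds 1 of each. A CRE core was found in 20.8% of all promoter windows.

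*Dusp3* (ENSMUSG00000003518, chromosome 11, 101971143 to 101987013, minus strand) overlaps the coding gene *Cfap97d1* on the other strand. It was at 72.8, 69.3, 77.0, 71.6 and 73.8 CPM in WT CTAL and at 104, 74.2, 93.2, 85.1 and 88.7 CPM in cKO CTAL. In WT MTAL it was at 57.4, 51.9, 52.8, 53.4 and 57.7 CPM, and in cKO MTAL at 64.2, 93.5 and 65.8 CPM. The WT MTAL values lay below those of each other group.

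Between WT MTAL and WT CTAL the log2 fold change of *Dusp3* was -0.43 (SE 0.08, edgeR adjusted p = 0.00239), and it held in all 20 alternatives. *Dusp3* rose in cKO MTAL over WT MTAL by 0.50 (SE 0.14, edgeR adjusted p = 0.0421). That call was lost in 9 of 17 alternatives, among them the removal of any one WT MTAL pool (edgeR adjusted p from 0.0621 to 0.0836) and of cKO MTAL pool 18 (log2 fold change 0.32, edgeR adjusted p = 0.192). In CTAL the log2 fold change between genotypes was 0.28 (SE 0.08, edgeR adjusted p = 0.157). Only 1 cKO CTAL pool, pool 4, lay below the highest WT CTAL pool.

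*Ptprk* (ENSMUSG00000019889, chromosome 10, 28074820 to 28597397, plus strand) was at 105, 118, 97.3, 111 and 116 CPM in WT CTAL and at 97.5, 109, 99.2, 94.2 and 103 CPM in cKO CTAL. In WT MTAL it was at 142, 146, 164, 135 and 184 CPM, above all other pools of the series. In cKO MTAL it was at 111, 113 and 86.2 CPM, below every WT MTAL pool, and pool 20 was also below every CTAL pool. The log2 fold change was 0.48 (SE 0.09, edgeR adjusted p = 0.00377) between WT MTAL and WT CTAL, a call lost on log2(TPM + 1) (limma adjusted p = 0.232).

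Between cKO MTAL and WT MTAL *Ptprk* fell by 0.52 on the log2 scale (SE 0.14, edgeR adjusted p = 0.0315). The call was lost without WT MTAL pool 15 or 19 or without cKO MTAL pool 20, with edgeR adjusted p of 0.0735, 0.0748 and 0.132. In TPM the means were 37.4 ± 5.95 TPM in WT MTAL and 40.6 ± 6.11 TPM in cKO MTAL. The log2 fold change there was 0.12 (limma on log2(TPM + 1), adjusted p = 0.760). The median of all genes tested was 0.19 on that scale, against 0.00 in the main test. *Ptprk* thus lay below the median of all genes on both scales, and its sign in TPM does not show a rise. The fall of *Ptprk* was called on the counts only. Beside it, 5 of 8 endothelial markers (*Cdh5*, *Flt1*, *Tek*, *Emcn* and *Plvap*) fell in cKO MTAL. The summed CPM of the 8 was 173 to 285 in cKO MTAL and 305 to 479 in WT MTAL, with 0 of them at zero in all pools of either group. Their part in the result was not tested.

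*Ptprs*, a receptor of the LAR family for matrix proteoglycans, and *Ptprn2* (phogrin), a protein of dense-core vesicles with little phosphatase activity, were called between the segments of WT mice. *Ptprs* (ENSMUSG00000013236, chromosome 17, 56412426 to 56476483, minus strand) was at 39.6, 38.03, 36.9, 33.6 and 46.7 CPM in WT CTAL and at 30.4, 23.9, 25.1, 20.8 and 15.3 CPM in WT MTAL. The groups did not overlap, and the log2 fold change was -0.76 (SE 0.16, edgeR adjusted p = 0.00653). On log2(TPM + 1) the call was lost (limma adjusted p = 0.352). In cKO CTAL *Ptprs* was at 37.1, 40.1, 44.1, 37.4 and 49.3 CPM, and in cKO MTAL at 25.8, 29.8 and 37.7 CPM. Its log2 fold change between the genotypes in MTAL was 0.48 (SE 0.22, edgeR adjusted p = 0.200), and the groups overlapped.

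*Ptprn2* (ENSMUSG00000056553, chromosome 12, 116485720 to 117276849, plus strand) was at 1.52, 2.45, 1.90, 2.44 and 2.96 CPM in WT CTAL and at 2.41, 2.96, 1.52, 1.40 and 1.85 CPM in cKO CTAL. In WT MTAL it was at 6.69, 6.86, 10.7, 8.70 and 10.03 CPM. In cKO MTAL it was at 7.75, 9.82 and 1.97 CPM. All WT MTAL pools were above all CTAL pools, and cKO MTAL pool 20, with the high *Aqp2*, lay among the CTAL pools.

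The log2 fold change of *Ptprn2* between WT MTAL and WT CTAL was 1.93 (SE 0.26, edgeR adjusted p = 0.000143), or 3.80-fold. The gene passed the filter only through the 5 WT MTAL pools. With no filter and one of these pools left out the log2 fold change lay between 1.85 and 2.02. Between cKO MTAL and cKO CTAL it was 1.74 (SE 0.46, edgeR adjusted p = 0.0807), which the likelihood ratio tests of edgeR and DESeq2 called (adjusted p = 0.00844 and 0.0105).

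*Ptpn14*, a soluble phosphatase that binds the growth regulator YAP, rose from WT CTAL to WT MTAL by 0.53 on the log2 scale (SE 0.13, edgeR adjusted p = 0.0184). The gene (ENSMUSG00000026604) lies at 189728268 to 189876695 of chromosome 1 on the plus strand. It was at 65.9, 59.0, 67.5, 70.2 and 72.5 CPM in WT CTAL and at 94.9, 69.0, 129, 96.2 and 98.3 CPM in WT MTAL, where pool 13 lay within the CTAL range. In cKO CTAL it was at 73.0, 64.7, 57.6, 61.97 and 92.4 CPM, and in cKO MTAL at 60.4, 104 and 69.5 CPM. The call was lost in a fit of all pools with a term for *Xist* (0.45, edgeR adjusted p = 0.126) or *Aqp2* (0.50, edgeR adjusted p = 0.0612), and on log2(TPM + 1) (limma adjusted p = 0.326).

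*Dusp1* (MKP-1), a nuclear phosphatase of p38, JNK and ERK, is itself an immediate early gene. It lies at 26505590 to 26562128 of chromosome 17 on the minus strand (ENSMUSG00000024190), an interval that also holds the coding gene *Ergic1* on the other strand. Its RefSeq promoter window is printed because it holds 3 matches to the CRE core, in capitals, 2 of which lie on opposite strands of a single palindrome, TGACGTCA.

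Dusp1 at chr17:26508423-26508722, minus strand: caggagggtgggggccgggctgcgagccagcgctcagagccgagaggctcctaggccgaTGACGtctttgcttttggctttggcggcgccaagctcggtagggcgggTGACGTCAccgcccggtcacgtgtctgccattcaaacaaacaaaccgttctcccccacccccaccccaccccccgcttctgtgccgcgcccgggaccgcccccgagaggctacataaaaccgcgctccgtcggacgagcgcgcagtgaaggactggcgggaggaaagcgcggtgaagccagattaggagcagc

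The palindrome was found in 1.79% of all promoter windows and in 7.58% of the 66 windows of the 49 members that matched RefSeq. For the core TGACG, which the palindrome also holds, the shares were 20.8% and 36.4%. The members' windows were also richer in G and C, with a median of 62% against 52.7%, and in GC boxes (56.1% against 35.7%), while the AP-1 site TGANTCA was found in 4.55% against 7.81%.

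*Dusp1* was at 131, 221, 169.7, 254 and 288 CPM in WT CTAL and at 70.1, 161, 152, 102 and 171 CPM in cKO CTAL. In WT MTAL it was at 545, 359, 237, 204 and 272 CPM, with pool 11 far above the others. In cKO MTAL it was at 339, 228 and 307 CPM, above every cKO CTAL pool. Between cKO MTAL and cKO CTAL the log2 fold change was 1.23 (SE 0.26, edgeR adjusted p = 0.0333), or 2.34-fold. That call was lost without cKO CTAL pool 4, 7 or 9 and without cKO MTAL pool 16 or 20 (edgeR adjusted p from 0.0566 to 0.113), and on log2(TPM + 1) (limma adjusted p = 0.119).

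The other comparisons of *Dusp1* missed the threshold. The log2 fold change was -0.71 (SE 0.24, edgeR adjusted p = 0.217) between cKO CTAL and WT CTAL, 0.59 (SE 0.24, edgeR adjusted p = 0.176) between WT MTAL and WT CTAL, and -0.09 (SE 0.25, edgeR adjusted p = 0.858) between cKO MTAL and WT MTAL.

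Many other immediate early genes moved beside *Dusp1*, but not all. In cKO MTAL 9 of the 11 tested rose over cKO CTAL, among them *Fos* by 1.81, *Junb* by 1.76, *Atf3* by 1.71 and *Egr1* by 1.38 on the log2 scale. Between cKO CTAL and WT CTAL 5 of 11 fell, *Fosb* by 1.28, *Ier2* by 1.12, *Fos* by 1.08, *Egr1* by 0.94 and *Jun* by 0.85. There 2 of the 11 had a positive log2 fold change, up to 1.08. *Ier3* went against *Dusp1*, at 76.4 to 304.7 CPM in cKO CTAL, 57.9 to 90.3 in WT CTAL and 18.1 to 44.0 in WT MTAL. Between WT MTAL and WT CTAL the 1 gene called on the list was lower in WT MTAL. In WT MTAL pool 11, the pool with the highest *Dusp1*, *Fos* was at 1567 CPM against 331 to 552 CPM in the other WT MTAL pools, *Egr1* at 1188 against 279 to 454 CPM, and *Atf3* at 269 against 37.5 to 56.9 CPM. Immediate early genes are also known to respond to the handling of tissue. The part of such a response in the *Dusp1* values was not tested.

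**Figure D4:**
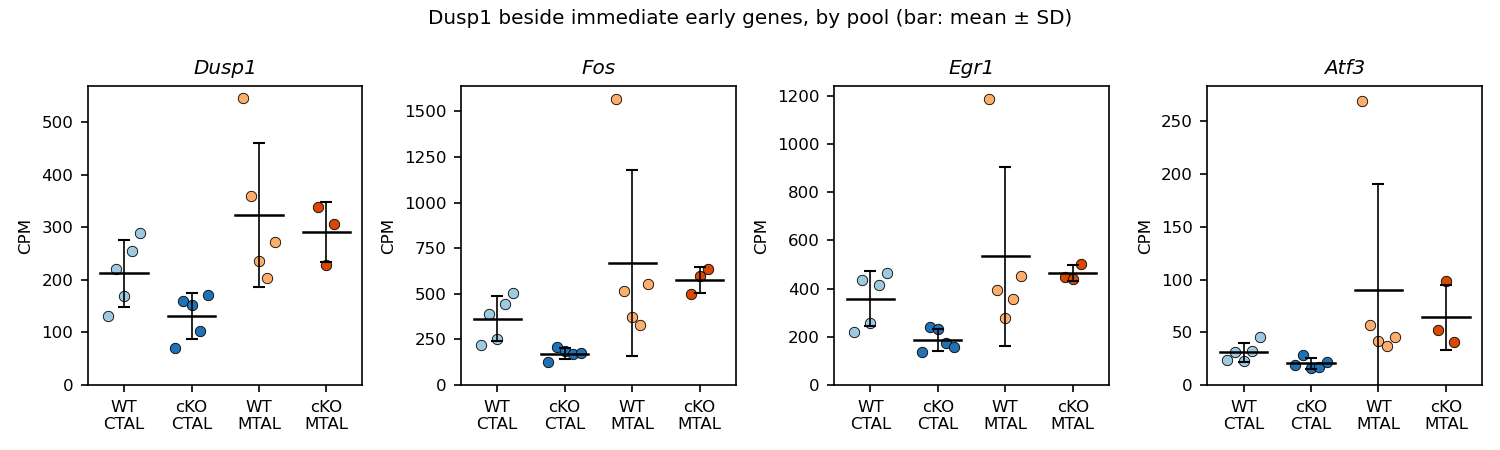
CPM of *Dusp1*, *Fos*, *Egr1* and *Atf3* in each pool (points), with the mean (line) and SD (bar) of the 4 groups, each on its own linear axis from 0. In all 4 panels the highest point is WT MTAL pool 11, and cKO CTAL has the lowest mean.

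Of the MAP kinase phosphatases, none but *Dusp1* and *Dusp9* was called in any of the 4 comparisons. Between cKO MTAL and WT MTAL the 3 nuclear ones tested, *Dusp1* included, had log2 fold changes of -0.24 to 0.47. The 2 tested that prefer JNK and p38 had 0.35 and 0.83. The latter was *Dusp8*, named after its values were seen, at 3.85 to 4.79 CPM in cKO MTAL against 1.88 to 3.02 CPM in WT MTAL. Of the 10 atypical enzymes tested, only *Dusp3* was called in any of the 4 comparisons, the others lying between -0.73 and 1.07 on the log2 scale. *Dusp22* (JKAP), which gave the upper end, is named after its values were seen. Its log2 fold change in cKO MTAL over WT MTAL was 1.07 (SE 0.43, edgeR adjusted p = 0.143), with 4.79, 5.13 and 9.39 CPM in cKO MTAL against 1.43 to 4.52 CPM in WT MTAL.

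Of the receptor-like enzymes 12 were tested between cKO MTAL and WT MTAL, with log2 fold changes from -0.89 to 1.01 and 1 call. *Ptprd*, of the LAR family, missed the call, but its cKO MTAL pools, at 91.0 to 111 CPM, lay below all WT MTAL pools, at 117 to 154 CPM. The same held for the soluble *Ptpn4*, which carries a membrane-binding FERM domain, at 29.4 to 45.2 against 47.8 to 64.7 CPM. Both are named after their values were seen. Of the 13 soluble enzymes tested between WT MTAL and WT CTAL, the log2 fold changes lay between -0.27 and 0.53 with a median of 0.03.

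ERK feedback genes (Sprouty, Spred and Etv genes) included *Etv1*, the gene of an ETS transcription factor. It rose in cKO MTAL over WT MTAL by 2.04 (edgeR adjusted p = 0.0105) and in cKO CTAL over WT CTAL by 1.81 (edgeR adjusted p = 0.00776), as 1 of 6 and 1 of 8 genes tested. In MTAL *Etv1* was at 0.60 to 1.78 CPM in WT and 3.65 to 6.41 CPM in cKO pools. It passed the filter there only through the 3 cKO MTAL pools, in which it had to be high to be tested. *Etv5* was lower in WT MTAL than in WT CTAL, with a log2 fold change of -1.12 (edgeR adjusted p = 0.0162), as 1 of 5. Of the liprins, a family of scaffold proteins, *Ppfibp1*, the gene of a beta liprin, was higher by 0.50 in WT MTAL than in WT CTAL (edgeR adjusted p = 0.00321) and fell by 0.47 in cKO MTAL (edgeR adjusted p = 0.0228), as 1 of 3 each time. Of the Src family and *Csk*, 1 of 7 was called, *Fgr*, which rose by 1.49 in cKO MTAL over WT MTAL (edgeR adjusted p = 0.0109).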

How the data were processed

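RNA of 18 pools was sequenced after poly-A selection with a strand-specific kit. The authors trimmed the reads (fastp in the methods, Trimmomatic in the submitters' processing notes), mapped them to mm10 with DRAGEN and summarised them by gene, using GENCODE. They deposited estimated counts, not normalized, with decimals in 6.26% to 9.53% of values per pool, and TPM values, which the authors scaled for transcript length and depth. How strand and reads with several matches were treated in counting is not given in the sources used here, so that overlapping genes are uncertain.

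The members and all lists were chosen with earlier results of these data known. Groups came from the pool names in the labels. Estimated counts were rounded and normalized by TMM (factors 0.919 to 1.08). A gene entered a test when 3 pools (comparisons with cKO MTAL and the interaction) or 5 pools (the others) reached 3 CPM. The test was the quasi-likelihood one of edgeR (edgeR 4.0.16, R 4.3.3) on the pools of the groups compared, or on all 18 pools for the interaction, with Benjamini-Hochberg adjustment over all genes tested. The filter left 44 or 42 of the 60 members, and the others were given by level only. Members called in any comparison, and the 3 with the highest mean TPM of each family, are named with values. The genes of the pathway lists that were called may be named. Alternatives were likelihood ratio tests of edgeR and DESeq2 (1.42.0), size factors of DESeq2, no filter, limma (3.58.1) on log2(TPM + 1) and log2(TPM + 0.1), 1 fit of all pools, that fit with a term for *Xist* or *Aqp2*, WT CTAL pool 1 as cKO CTAL, and each pool left out. The scripts were tested on simulated data. Promoter windows came from RefSeq (GRCm38.p6) by symbol, and motifs were searched on both strands. Python 3.11.15 and pandas 2.3.3 made the tables. A list of kinase genes is not reported here.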

Additional observations from a re-analysis of the deposited data

How the results depend on the processing

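No paired analysis was run, because the groups share no replicate numbers and no label says which pools belong together. Of the counts of members called, that of cKO MTAL against WT MTAL (4) was 2 with limma on log2(TPM + 1), 2 on log2(TPM + 0.1), 9 in 1 fit of all 18 pools and 9 in that fit with a term for *Aqp2*, and 2 to 3 with 1 pool left out. For cKO CTAL against WT CTAL (1) it was 0 on either TPM scale, 0 with WT CTAL pool 1 as cKO CTAL, 0 with a term for *Xist*, and 0 to 1 with 1 pool left out. For WT MTAL against WT CTAL (6) it was 3 on both TPM scales and 5 to 6 with 1 pool left out. For cKO MTAL against cKO CTAL (2) it was 5 with DESeq2, 4 with edgeR's likelihood ratio test, 1 and 1 on the TPM scales, 4 in the fit of all pools, 4 with a term for *Xist*, 4 with a term for *Aqp2*, and 1 to 2 with 1 pool left out. For the interaction (0) it was 1 with edgeR's likelihood ratio test and 0 to 2 with 1 pool left out, the 2 being without cKO MTAL pool 18. The sign turned only for *Ptprk* between cKO MTAL and WT MTAL, with 0.12 on log2(TPM + 1) and 0.12 on log2(TPM + 0.1). The medians of all genes on these scales were 0.19 and 0.21, so that *Ptprk* stayed below them. On the TPM scales the calls of *Ptpn5* in CTAL, *Dusp3* in MTAL between genotypes, *Ptprk*, *Ptprs* and *Ptpn14* between WT segments and *Dusp1* between cKO segments were also lost, while those of *Dusp9* and *Ptprn2*, of *Ptpn5* in MTAL and of *Dusp3* between WT segments were kept. The TPM values were not normalized again. On log2(TPM + 1) the median of all genes between genotypes was 0.19 in MTAL and 0.13 in CTAL, against 0.00 in both main tests. Between WT MTAL and WT CTAL it was -0.05 against 0.02. The part of these shifts in the lost calls was not tested. The fits without the filter and without 1 pool for *Ptpn5* and *Ptprn2* were chosen after seeing the data. With 3 cKO MTAL pools, comparisons with that group rest on the fewest animals.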

Other observations

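The TPM and CPM values of some members did not move together from pool to pool, which was noticed after their values were seen. The ratio of TPM to CPM of a gene is set by the transcript length and by the pool. For *Ptpn6* it ranged from 0.552 in WT MTAL pool 17 to 3.95 in WT CTAL pool 3, a 7.16-fold range, and for *Ptpn1* (PTP1B, which acts on the insulin receptor) from 0.270 in WT MTAL pool 19 to 1.46 in cKO MTAL pool 20. *Ptpn1* was at 80.3 TPM in that cKO MTAL pool against 12.4 to 41.9 TPM in the others, but at 54.8 CPM within a range of 39.8 to 59.5 CPM. The ratio of *Ptprk* ranged from 0.217 in WT MTAL pool 17 to 0.529 in cKO MTAL pool 20. Its log2 fold change in MTAL differs in sign between the scales, but lay below the median of all genes on both. Which transcripts the authors' TPM values assign to these genes was not tested.

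*Ptpre*, a receptor-like phosphatase, had an interaction of 1.28 on the log2 scale (SE 0.41, unadjusted p = 0.00495, edgeR adjusted p = 0.132). It was at 10.8, 3.60 and 5.74 CPM in cKO MTAL, so that pool 16 carried most of the difference from the 3.11 to 4.34 CPM of WT MTAL.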
